A study of Saccharomyces cerevisiae with 12 samples.

Results

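Transcript levels in unstressed budding yeast were compared between a pat1 mutant and wild type cells. The comparison took the 3 arrays titled as the pat1 mutant grown for 2 h and the 3 arrays titled as the wild type grown for 2 h, all without drug, which are 6 of the 12 arrays of the study. Members were therefore chosen by their labels, and 5449 genes with 1 symbol in the platform annotation were described. Both groups were Saccharomyces cerevisiae in the BY4741 background, a haploid laboratory strain of mating type a with deletions of LEU2, MET17 and URA3 and part of HIS3. Cells in exponential growth were cultured for a further 2 h with 0 µg/ml Congo Red before total RNA was taken. The other 6 arrays hold the same 6 biological samples, 3 of each strain, after 2 h in 30 µg/ml Congo Red, a dye that disturbs cell wall assembly. The labels name the mutant only as a pat1 mutant of BY4741, without the nature of the allele, the marker used or the number of clones. Values are log2 signals, so a difference of 1 is a 2-fold change, and in bulk RNA fewer cells with a transcript cannot be told apart from less of it in each cell.

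Pat1 is a conserved scaffold of cytoplasmic mRNA decay. It binds the ring of Lsm1 to Lsm7 at the shortened tails of deadenylated mRNAs, recruits the decapping enzyme Dcp2 with Dcp1, and with the helicase Dhh1 takes part in the repression of translation. Decapped mRNAs are degraded from the 5′ end by the exonuclease Xrn1, while the Ccr4-Not complex shortens tails beforehand and the exosome with the Ski complex works from the 3′ end. Both proteins and mRNAs of this route gather in P-bodies when translation stops.

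PAT1 itself had signals of 10.93, 10.50 and 10.62 on the 3 wild type arrays and of 3.86, 3.01 and 3.39 on the 3 pat1 arrays. The groups were far apart. The pat1 values lay in or just below the range of LEU2 and MET17, which this strain background lacks and which read 3.15 to 4.16 on the untreated arrays. The difference was -7.26 ± 0.25 on the log2 scale (SE of the fit, n = 3 a group), a 154-fold lower signal (limma, Benjamini-Hochberg adjusted p = 2.69e-08). Of the genes beside PAT1 on the chromosome, PTC6, which encodes a mitochondrial protein phosphatase, rose by 0.58 ± 0.14 (limma, adjusted p = 0.0319). FUB1, ERS1, EGO2, SRB8 and AHC2 did not pass, with differences of 0.48, 0.31, -0.38, -0.37 and -0.03. The mating type a genes MFA1 and STE2 read 12.46 to 13.53 and 12.26 to 12.76 on the untreated arrays. The alpha factor genes MF(ALPHA)1 and MF(ALPHA)2 read 4.02 to 4.88 and 4.82 to 5.35. Not all genes of alpha cells were so low. STE3, described below, read 5.20 to 7.33, and SAG1 read 8.68 to 9.31.

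Some arrays stood apart from their groups. URA3 read 6.76 on pat1 array 1 and 3.02 to 3.20 on the other 5 untreated arrays, so that array holds URA3 signal that the other untreated arrays lack. The treated array of the same sample read 3.21, and of the treated arrays wild type array 2 alone was high, at 7.71, so URA3 differed between arrays that the design text gives to 1 sample. General stress genes were high on wild type array 2 and on pat1 array 3, with median deviations from the wild type mean of 0.42 and 1.18 over 76 genes. The main counts below are therefore also given without pat1 array 1 and without wild type array 2 and pat1 array 3, called the reduced sets. Array medians lay between 9.54 and 9.59, and arrays of 1 group correlated at 0.975 to 0.995. Medians of the difference by chromosome ran from -0.05 to 0.08.

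Of 5449 genes, 351 (6.44%) differed between the strains at an adjusted p under 0.05, in a limma fit to all 12 arrays. Of these, 191 (3.51%) rose in pat1 and 160 (2.94%) fell. Their changes were mostly modest: the median size was 0.62 on the log2 scale, and 58 genes (1.06%) changed at least 2-fold, 39 (0.716%) upward and 19 (0.349%) downward. In all 351 genes the 3 pat1 arrays lay wholly above or below the 3 wild type arrays, as they did in 1467 genes (26.9%) in all. Where groups of a called gene are described below as apart, this therefore adds nothing to its call. The largest falls after PAT1 were in phosphate genes, a glucose transporter gene and a group of reading frames known by systematic names. Among the called genes, the largest rises were in CTT1, CLD1, FMP45, SPO22 and QDR2, none of them above 4-fold. Genes that were not called reached higher differences, up to 2.46 for HSP12, described below.

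The number of calls depended strongly on which arrays entered the fit. The adjusted p-values of the fit to 12 arrays treat the 2 arrays of a biological sample as independent, although their estimated correlation was 0.631. With the biological sample as a random block, which models that correlation, 287 genes were called, 170 up and 117 down. A fit to the 6 untreated arrays alone, each from a separate biological sample, called 24 genes (0.44%), 12 up (0.22%) and 12 down (0.22%), with 1103 genes at an unadjusted p under 0.05 against 1326 in the fit to 12 arrays. Leaving out pat1 array 1 gave 118 calls, 66 up and 52 down, of which 106 were among the 351. Leaving out both wild type array 2 and pat1 array 3 gave 63 calls, of which 62 were among the 351. Leaving out wild type array 1, wild type array 2, wild type array 3 or pat1 array 3 gave 58, 199, 73 or 86 calls, and leaving out pat1 array 2 gave 315. Among arrays with drug, which enter only the estimate of spread, leaving out wild type array 1 or 3 gave 200 or 233 calls. A set of 47 genes (0.863%), 24 up (0.44%) and 23 down (0.422%), was called whichever of the untreated arrays was left out. These are called the stable genes below.

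**Figure D1:**
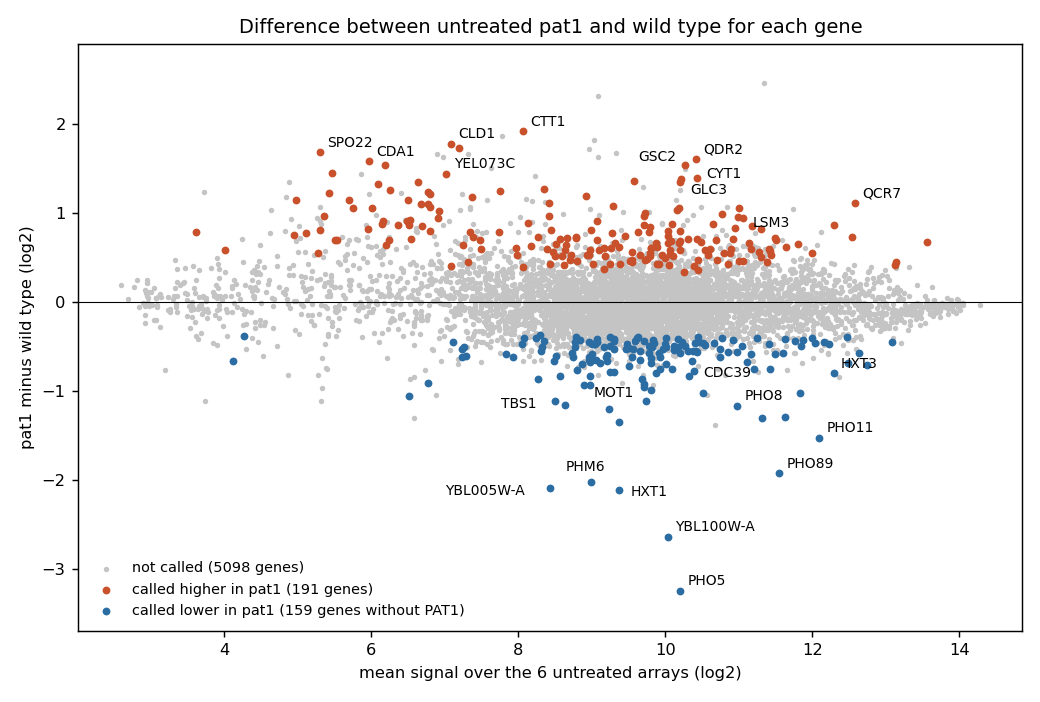
Difference between untreated pat1 and wild type (log2, vertical axis) against the mean signal over the 6 untreated arrays (log2, horizontal axis), 1 point a gene, with PAT1 at -7.26 outside the axis. Coloured points are the genes called by limma at an adjusted p under 0.05; PHO5, YBL100W-A, HXT1, YBL005W-A, PHM6 and PHO89 lie below the rest, and most other called genes differ by less than 1.

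The phosphate regulon had a high share of falls. These genes encode secreted phosphatases, phosphate transporters and polyphosphate enzymes, and are switched on by the factor Pho4 when phosphate is scarce. Of 28 measured members, 9 fell and 2 rose, a share of 32.1% called lower against 2.94% of all genes, and the median difference was -0.23 against -0.01 over all genes. Of the 11 called members, 5 were stable genes, namely PHO5, PHM6, PHO89, PHO8 and SPL2. In the fit to the 6 untreated arrays only 1 member, PHO89, was called. PHM6 and PHO8 did not pass there (limma, adjusted p = 0.0545 and 0.0586). Without pat1 array 1 the counts were 7 lower and 1 higher, and without wild type array 2 and pat1 array 3 they were 3 lower and 0 higher. With the trend on length described below taken off, the counts were 7 lower and 2 higher.

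PHO5, the main repressible acid phosphatase gene, read 11.63, 11.77 and 12.07 in wild type and 9.86, 7.97 and 7.90 in pat1. Every pat1 array was lower, and pat1 array 1 fell less than the other two. The difference was -3.25 ± 0.51, a 9.5-fold lower signal (limma, adjusted p = 0.00668), and in the fit to the 6 untreated arrays it had an adjusted p of 0.0529. PHO11, another acid phosphatase gene whose probe set may bind related transcripts, read 12.85, 12.73 and 13 in wild type and 12.11, 11.43 and 10.45 in pat1. It fell by 1.53 ± 0.32 (limma, adjusted p = 0.022), with a wide spread among the pat1 arrays. PHO8, the vacuolar alkaline phosphatase gene, read 11.62, 11.39 and 11.68 against 10.74, 10.39 and 10.04, and the groups did not overlap. It fell by 1.17 ± 0.16 (limma, adjusted p = 0.00274). PHO3, an acid phosphatase gene of the same family that is regulated by thiamine and not by phosphate, differed by -0.13 ± 0.19 (limma, adjusted p = 0.713).

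The phosphate transporters did not move alike. PHO89, which encodes the sodium-coupled transporter, read 12.53, 12.41 and 12.59 in wild type and 10.93, 10.35 and 10.47 in pat1. All 3 pat1 arrays were lower by more than 1, and the difference was -1.93 ± 0.14, a 3.8-fold lower signal (limma, adjusted p = 4.49e-05). It also passed in the fit to 6 arrays (adjusted p = 0.00873). PHO84, the gene of the main high-affinity transporter, read 13.57, 13.58 and 13.64 against 13.18, 13.51 and 13.30. These signals lie near the highest value on the arrays, 14.32, and the difference of -0.26 ± 0.12 did not pass (limma, adjusted p = 0.21). The low-affinity transporter genes PHO87, PHO90 and PHO91 differed by 0.26, -0.30 and -0.20, none past the threshold. GIT1, the gene of a glycerophosphoinositol transporter, read 5.51, 5.89 and 5.69 in wild type and 6.47, 6.54 and 6.74 in pat1. It was higher on every pat1 array and rose by 0.88 ± 0.16 (limma, adjusted p = 0.0142).

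Among the remaining members, PHM6, a phosphate-regulated gene of unknown function, read 9.81, 10.64 and 9.58 in wild type and 8.38, 7.5 and 8.05 in pat1. The groups did not overlap and it fell by 2.03 ± 0.32 (limma, adjusted p = 0.00684). SPL2, which limits low-affinity phosphate uptake, read 11.68, 12.12 and 11.63 against 11.05, 11.04 and 11.05. The pat1 values were nearly equal, and it fell by 0.76 ± 0.13 (limma, adjusted p = 0.0119). Of the vacuolar polyphosphate synthesis genes, VTC3 and VTC2 fell by 0.69 and 0.44 (limma, adjusted p = 0.0136 and 0.0422), while VTC4 and VTC1 differed by -0.49 and -0.19 without passing (adjusted p = 0.0776 and 0.191). Of the signalling genes, PHO81, the inhibitor of the Pho80-Pho85 kinase, fell by 0.52 ± 0.14 (limma, adjusted p = 0.0497). The factor genes PHO4 and PHO2 and the cyclin gene PHO80 differed by -0.20, -0.18 and -0.09, and the kinase gene PHO85 by 0.46 (adjusted p = 0.0613), so none of these 4 passed. PHM7 rose by 1.10 ± 0.26 (limma, adjusted p = 0.0319) and is also counted among the general stress genes. Outside the list, GDE1, a glycerophosphocholine phosphodiesterase gene, fell by 0.93 ± 0.17 (limma, adjusted p = 0.0159) and passed in the fit to 6 arrays (adjusted p = 0.0363).

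In the other 6 arrays, with Congo Red, pat1 minus wild type was -2.74 for PHO5, -1.72 for PHM6, -1.38 for PHO11, -0.94 for PHO8 and -0.84 for PHO89. The difference of the effects with and without drug was 1.08 for PHO89. It did not pass in the 12-array fit (limma, adjusted p = 0.429) nor with the biological sample as a fixed block (adjusted p = 0.0505), and it passed with the sample as a random block (adjusted p = 0.0156). For PHO5 it was 0.51 and did not pass in any of these 3 fits, with adjusted p-values of 1.0, 0.309 and 0.546.

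**Figure D2:**
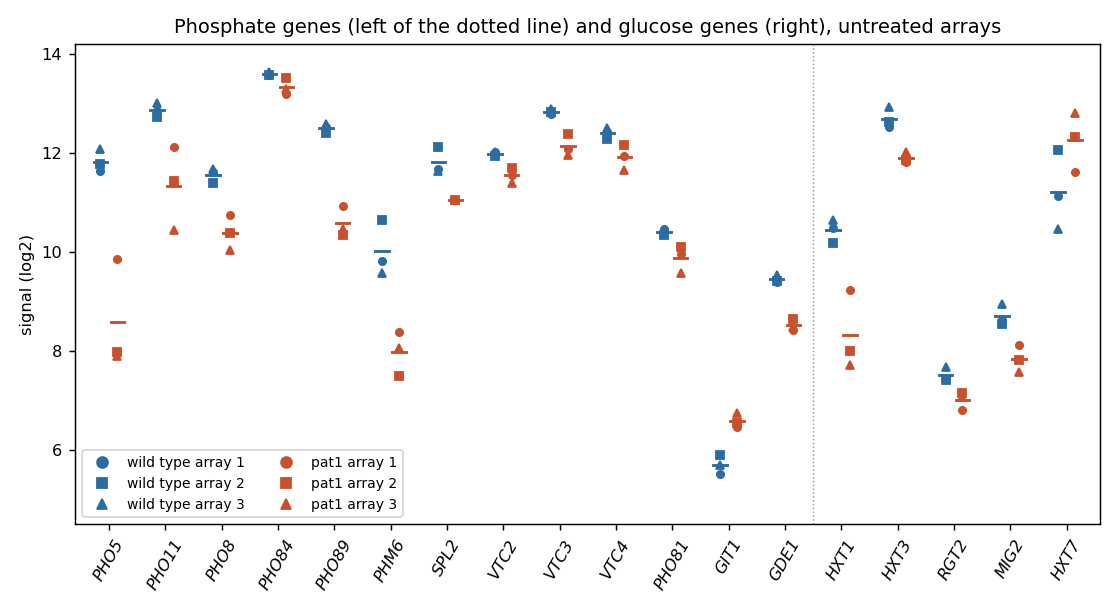
Signals (log2) of phosphate genes, left of the dotted line, and of glucose genes, right of it, on the 3 untreated wild type arrays (blue) and the 3 untreated pat1 arrays (red), with the group mean as a bar. PHO5 drops from 11.63 to 12.07 in wild type to 7.90 to 9.86 in pat1, PHO84 stays above 13 in both strains, and GIT1 is higher in pat1.

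Hexose transporter genes, which yeast switches on and off with the amount of glucose outside the cell, had 3 of 18 members lower (16.7%) and 0 higher, with a median difference of 0.02, beside 2.94% lower and 3.51% higher over all genes. Without pat1 array 1 there were 2 lower, without wild type array 2 and pat1 array 3 there were 0, and none of the 3 was a stable gene or called in the fit to 6 arrays. HXT1, the gene of the low-affinity transporter used at high glucose, read 10.48, 10.18 and 10.64 in wild type and 9.23, 8 and 7.72 in pat1. The groups were apart, again with pat1 array 1 nearest to the wild type. HXT1 fell by 2.12 ± 0.37, a 4.34-fold lower signal (limma, adjusted p = 0.0127), and its highest adjusted p on leaving out an untreated array was 0.0505. HXT3, also a low-affinity transporter gene, read 12.52, 12.62 and 12.93 against 11.81, 11.86 and 12.01, without overlap. It fell by 0.80 ± 0.14 (limma, adjusted p = 0.0133). RGT2, the sensor of high glucose, fell by 0.51 ± 0.13 (limma, adjusted p = 0.0471), and SNF3, the sensor of low glucose, differed by -0.14 (adjusted p = 0.425).

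HXT7, a high-affinity transporter gene whose probe set may bind related transcripts, read 11.13, 12.05 and 10.47 in wild type and 11.62, 12.33 and 12.81 in pat1. The groups overlapped, and the difference of 1.04 ± 0.44 did not pass (limma, adjusted p = 0.18). HXT2 and HXT4 differed by 0.04 and -0.26, far from the threshold. MIG2, a glucose-induced repressor gene of the next list, fell by 0.87 (limma, adjusted p = 0.022). Among 36 genes of gluconeogenesis, the glyoxylate cycle and other glucose-repressed functions, 5 rose (13.9%) and 2 fell (5.56%), beside 3.51% and 2.94% of all genes. The median of the 36 was 0.20. Without pat1 array 1 there were 2 higher and 2 lower, and without wild type array 2 and pat1 array 3 there were 0 in both directions. ADY2, an acetate transporter gene, read 4.6, 4.67 and 4.91 in wild type and 5.47, 5.49 and 5.51 in pat1. It rose by 0.77 ± 0.12 (limma, adjusted p = 0.00608) and was a stable gene, whereas PCK1, the first enzyme of gluconeogenesis, differed by 0.80 ± 0.35 without passing (adjusted p = 0.19). Of 22 genes of glycolysis and fermentation, 1 rose, the glucokinase gene GLK1 (0.73, adjusted p = 0.038), and 0 fell.

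Several reading frames without a gene name in the annotation used were among the 15 largest falls. YBL100W-A read 11.72, 11.40 and 10.97 in wild type and 8.58, 8.91 and 8.66 in pat1, and fell by 2.64 ± 0.21 or 6.25-fold (limma, adjusted p = 6.32e-05). YBL005W-A read 9.76, 9.13 and 9.54 against 6.89, 7.88 and 7.38, and fell by 2.09 ± 0.32 (limma, adjusted p = 0.00608). YBL100W-B read 12.10, 12.23 and 11.60 against 10.58, 10.86 and 10.55, and fell by 1.31 ± 0.22 (limma, adjusted p = 0.00834). In all 3 the groups were apart, all 3 were stable genes, and all 3 passed in the fit to 6 arrays with adjusted p-values of 0.00436, 0.0363 and 0.0417. YAR009C, YDR261W-B, YDR261C-D, YOR192C-C and YCL021W-A fell by 1.35, 1.30, 1.21, 1.16 and 1.12 (limma, adjusted p = 0.044, 0.0173, 0.0366, 0.0375 and 0.0293). With the trend on length described below taken off, YAR009C, YDR261W-B and YDR261C-D differed by -1.07, -0.92 and -0.86 and no longer passed (adjusted p = 0.114, 0.0639 and 0.127). The probe sets of these frames, other than YOR192C-C and YCL021W-A, may bind related transcripts, so the frames cannot be counted as independent. Their counterparts with Congo Red were -2.50 for YBL100W-A, -1.74 for YBL005W-A and -0.99 for YBL100W-B.

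Long and short genes differed in direction. Over 461 genes with a coding length above 3000 bases, 73 fell (15.8%) and 3 rose (0.651%), with a median difference of -0.30. Over 2087 genes of up to 1000 bases, 10 fell (0.479%) and 110 rose (5.27%), with a median of 0.11. Without wild type array 2 and pat1 array 3 the genes above 3000 bases had 10 lower and 1 higher with a median of -0.31, and those of up to 1000 bases had 2 lower and 24 higher with a median of 0.11. Without pat1 array 1 the counts were 19 lower and 2 higher, and 12 lower and 29 higher. Coding length, counted with any intron, had a median of 1236 bases over all genes, 894 over the genes that rose and 2838 over the genes that fell, and 45.6% of the genes that fell were above 3000 bases against 8.46% of all genes. From the shortest class to the longest the medians were 0.12, 0.10, 0.01, -0.05, -0.16, -0.26 and -0.35. The length classes were chosen after the data were seen.

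Long genes lay further below short genes on each pat1 array than on any wild type array. The median of genes above 4000 bases minus the median of genes up to 1000 bases was -0.486, -0.334 and -0.511 on the untreated pat1 arrays, and 0.016, -0.081 and 0.066 on the untreated wild type arrays. With Congo Red it was -0.200, -0.225 and -0.413 in pat1 and 0.063, -0.092 and 0.030 in wild type, each taken from the mean of the treated wild type arrays. When each array's trend on length was taken off, 217 genes were called, 144 up and 73 down, of which 116 were among the 191 genes that rose and 56 among the 160 that fell. Probe sets that read both ends of a yeast transcript were not among the controls in the table, so the part of RNA integrity or labelling in the trend was not tested.

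**Figure D3:**
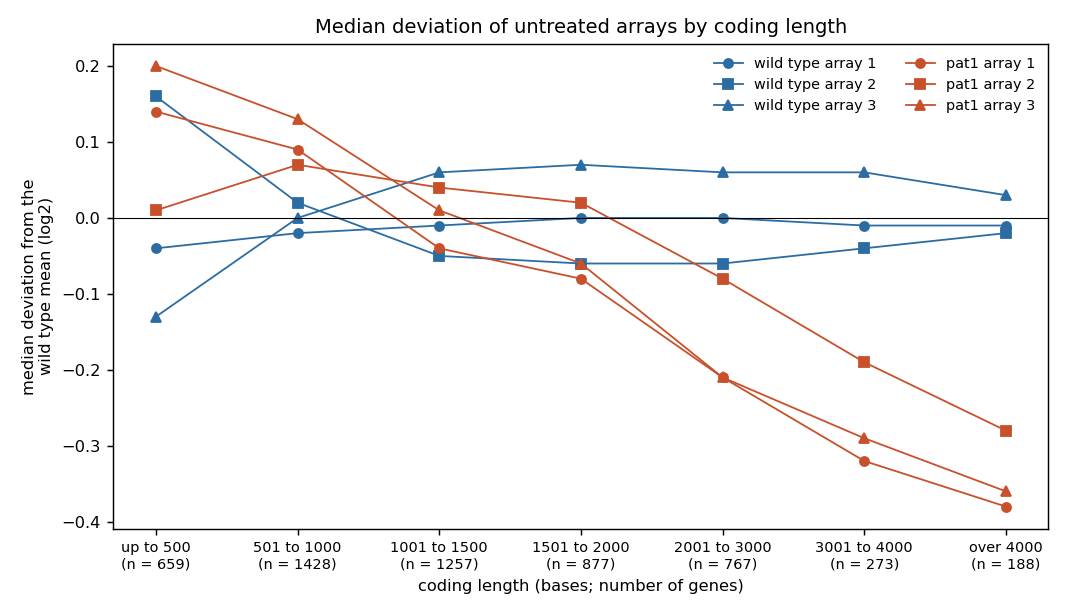
Median deviation from the wild type mean (log2, vertical axis) of the genes in 7 classes of coding length (bases, horizontal axis) on each untreated array. The 3 pat1 lines (red) fall to between -0.38 and -0.28 above 4000 bases, while the 3 wild type lines (blue) stay within 0.07 of 0 in every class above 500 bases.

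Several long genes fell clearly. MOT1 encodes an ATPase that removes the TATA-binding protein from DNA, and has 5604 coding bases. It read 10.24, 10.23 and 10.44 in wild type and 9.34, 9.49 and 9.12 in pat1, and fell by 0.99 ± 0.12 (limma, adjusted p = 0.0018). SAP155, which encodes a partner of the Sit4 phosphatase, read 9.43, 9.44 and 9.22 against 8.38, 8.46 and 8.43, and fell by 0.94 ± 0.11 (limma, adjusted p = 0.0018). In both genes the groups were more than 0.7 apart. TBS1, a zinc cluster protein gene, fell by 1.11 (adjusted p = 0.000558) and TCB2, a tricalbin gene of contacts between endoplasmic reticulum and plasma membrane, by 1.03 (adjusted p = 0.00274). UBR1, the ubiquitin ligase of the N-end rule, fell by 0.75 (adjusted p = 0.00217), the cohesin loader gene SCC2 by 0.76 (adjusted p = 0.00608) and the chromatin remodeller gene SWR1 by 0.70 (adjusted p = 0.0059). ECM29, a proteasome-associated gene, fell by 0.92 (adjusted p = 0.00668). With the trend on length taken off, MOT1, SAP155, TBS1, TCB2, UBR1, SCC2 and SWR1 still passed, and ECM29 did not (adjusted p = 0.0596). GSC2, with 5688 coding bases, was an exception among long genes and rose.

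Few genes of the machinery in which Pat1 works were called, and in lists this small 1 gene makes a large share. Of the 9 measured genes of the Lsm ring and its partner, PAT1, the mutated gene itself, was lower (11.1%, beside 2.94% of all genes). LSM3 rose (11.1%, beside 3.51% of all genes). LSM3, a subunit of both the cytoplasmic and the nuclear ring, read 10.62, 10.61 and 10.55 in wild type and 11.74, 11.38 and 11.48 in pat1. The groups were 0.7 or more apart, and the rise was 0.94 ± 0.13 (limma, adjusted p = 0.00281), called also in the fit to 6 arrays (adjusted p = 0.037). The other ring genes differed by between -0.42 for LSM7 and 0.13 for LSM5, and none passed. LSM1, the subunit that defines the cytoplasmic ring, read 11.29, 11.42 and 11.27 against 10.98, 11.31 and 11.44, and the groups overlapped.

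Of 17 measured genes of decapping and 5′ to 3′ decay, 1 fell (5.88%, beside 2.94% of all genes) and 0 rose. XRN1, the cytoplasmic exonuclease gene, read 11.19, 10.96 and 11.26 in wild type and 10.57, 10.65 and 10.50 in pat1. It fell by 0.56 ± 0.10 (limma, adjusted p = 0.0154), and with the trend on length taken off the difference was -0.22 (adjusted p = 0.172). DCP2, the catalytic decapping subunit, differed by -0.37 ± 0.11 without passing (adjusted p = 0.0646), as did its partner gene DCP1, by -0.07. DHH1, the helicase that acts with Pat1, differed by 0.00 ± 0.21 (adjusted p = 0.995). EDC3 and SCD6, which encode P-body proteins, differed by 0.08 and -0.19, and the stress-inducible DCS2 by 1.04 ± 0.53, none past the threshold.

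Of 14 deadenylation genes, CDC39 alone was called (7.14% lower, beside 2.94% of all genes). CDC39, the scaffold of the Ccr4-Not complex also known as Not1, read 10.83, 10.77 and 10.77 in wild type and 9.93, 10.11 and 9.96 in pat1. It fell by 0.78 ± 0.10 (limma, adjusted p = 0.00274) and was a stable gene, but with 6327 coding bases it differed by -0.37 (adjusted p = 0.0574) once the trend on length was taken off. The nuclease genes CCR4 and POP2 differed by -0.28 and 0.02, and the poly(A)-binding protein gene PAB1 by -0.26. Of 17 genes of the Ski complex and exosome, SKI3 alone was called (5.88% lower, beside 2.94% of all genes). It fell by 0.69 ± 0.15 (limma, adjusted p = 0.0233). With the trend on length taken off it differed by -0.37 (adjusted p = 0.161). SKI2 differed by -0.39 (adjusted p = 0.0524), SKI8 by 0.11 and the exosome nuclease gene DIS3 by -0.25. None of 8 genes of nonsense-mediated and no-go decay was called, with NMD2 nearest at -0.57 (adjusted p = 0.0524), and none of 19 genes of RNA-binding proteins that steer mRNA fate, such as PUF3, PUB1 and SSD1, at -0.32, 0.22 and -0.31.

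**Figure D4:**
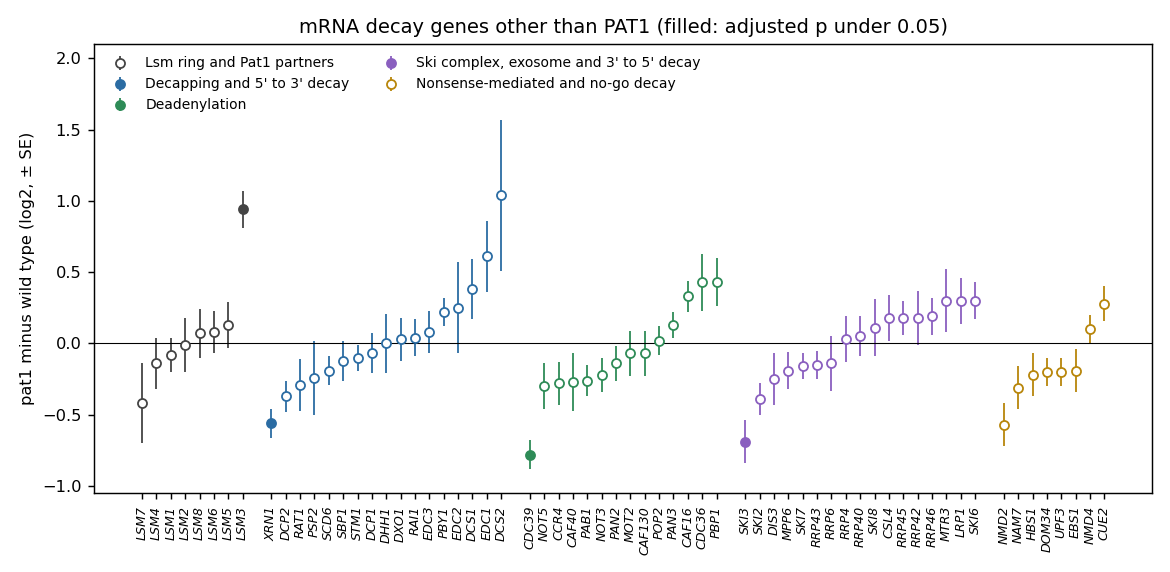
Difference between untreated pat1 and wild type (log2, ± SE of the fit, vertical axis) for the measured genes of 5 mRNA decay lists other than PAT1, ordered within each list. Filled points are called by limma at an adjusted p under 0.05: LSM3 upward at 0.94, and XRN1, CDC39 and SKI3 downward at -0.56, -0.78 and -0.69.

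Genes of the general stress response are switched on by the factors Msn2 and Msn4 under many stresses. Of 76 members, 12 were higher (15.8%) and 1 lower (1.32%), beside 3.51% and 2.94% of all genes. The median difference was 0.57, and 67 of 76 lay above 0, against 2607 of 5449 genes in all. On the wild type arrays the median deviation was -0.21, 0.42 and -0.21, and on the pat1 arrays 0.35, 0.30 and 1.18. The arrays overlapped, since wild type array 2 was above pat1 arrays 1 and 2. None of the 13 called members was a stable gene or passed in the fit to 6 arrays. Without wild type array 2 and pat1 array 3 the median was 0.61, with 4 genes higher and 1 lower, and without pat1 array 1 there were 4 higher and 0 lower.

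CTT1, the cytosolic catalase gene, read 6.83, 7.55 and 6.94 in wild type and 8.63, 8.46 and 9.98 in pat1. The groups were apart, with the highest value on pat1 array 3, and it rose by 1.92 ± 0.44 or 3.77-fold (limma, adjusted p = 0.0317). HSP12, a membrane-protecting small heat shock protein gene, read 9.18, 12.48 and 8.67 against 11.63, 12.25 and 13.82. Here the groups overlapped through wild type array 2, and the difference of 2.46 ± 1.01 did not pass (limma, adjusted p = 0.163). Others that rose were FMP45, an eisosome-related gene, by 1.73, the glycogen genes GLC3 and GSY1 by 1.38 and 1.35, the desiccation-related GRE1 by 1.33, the peroxidase gene GPX1 by 1.27 and the glycogen debranching inhibitor gene IGD1 by 1.25, with adjusted p-values of 0.0407, 0.0434, 0.0168, 0.0238, 0.0229 and 0.0496. DDR48, a gene first described for DNA damage, went the other way. It read 12.11, 12.63 and 12.30 in wild type and 10.91, 11.23 and 11.85 in pat1, and fell by 1.02 ± 0.21 (limma, adjusted p = 0.022). The regulator genes themselves did not pass: of 13, MSN4 differed most, at 0.99 ± 0.40 (adjusted p = 0.152).

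Nuclear genes of the respiratory chain and ATP synthase had 4 of 46 members higher (8.70%) and 0 lower, with a median of 0.39 and 43 members above 0. Without pat1 array 1 there were 3 higher, and without wild type array 2 and pat1 array 3 there was 1. The 4 genes called higher were all of complex III. The 46 members had a median coding length of 476 bases. With the trend on length taken off there were 3 higher, and QCR2 did not pass (limma, adjusted p = 0.063). CYT1, which encodes cytochrome c1, read 9.75, 10.12 and 9.35 in wild type and 10.70, 11.21 and 11.48 in pat1, a rise of 1.39 ± 0.27 (limma, adjusted p = 0.0189). QCR7 read 12.03, 12.38 and 11.68 against 13.14, 12.96 and 13.32, a rise of 1.11 ± 0.20 (limma, adjusted p = 0.0142), and the core subunit genes QCR2 and COR1 rose by 0.83 and 0.82 (adjusted p = 0.0497 and 0.0203). The groups did not overlap in any of the 4, but the list medians overlapped by array, at -0.04, 0.30 and -0.24 in wild type and 0.12, 0.35 and 0.73 in pat1. Within each strain the array highest here was the one highest for the stress genes, and the part of stress in these values was not tested. Of 66 mitochondrial ribosomal protein genes, 3 rose (4.55%, beside 3.51% of all genes) and 0 fell, with a median of 0.21, and 1 was higher in each reduced set. MRPL32, MRPL8 and MRP51 rose by 0.99, 0.54 and 0.46 (limma, adjusted p = 0.0161, 0.0178 and 0.0364). These 66 genes had a median coding length of 706 bases. With the trend on length taken off there were 2 higher, and MRP51 did not pass (limma, adjusted p = 0.0574). HAP4, the activator gene of respiration, differed by 1.01 without passing (adjusted p = 0.123).

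Cytosolic ribosomal protein genes, the most abundant class of messages, gave no call among 127, with a median of -0.09 and 114 members below 0. RPS19A differed most, at -0.54 ± 0.18 (limma, adjusted p = 0.102), and RPL3 read 13.59 to 13.73 on all 6 untreated arrays. Of 133 ribosome biogenesis genes, 3 rose (2.26%) and 2 fell (1.5%), beside 3.51% and 2.94% of all genes. Of 29 translation initiation factor genes none was called. Of 32 genes of purine, pyrimidine and one-carbon metabolism, 30 lay below 0 and the median was -0.43, but only URA4 and ADE3 fell (by 0.59 and 0.48, limma, adjusted p = 0.0196 and 0.0488). With the trend on length taken off, ADE3, with 2841 coding bases, differed by -0.27 (limma, adjusted p = 0.297). The median deviation of the 32 genes was -0.55 and -0.54 on pat1 arrays 1 and 2 and -0.08 on pat1 array 3. ADE17, an enzyme of the last steps of purine synthesis, read 12.51, 13.39 and 12.44 in wild type and 11.72, 10.60 and 13.49 in pat1, and thus spanned nearly 3 units within pat1.

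**Figure D5:**
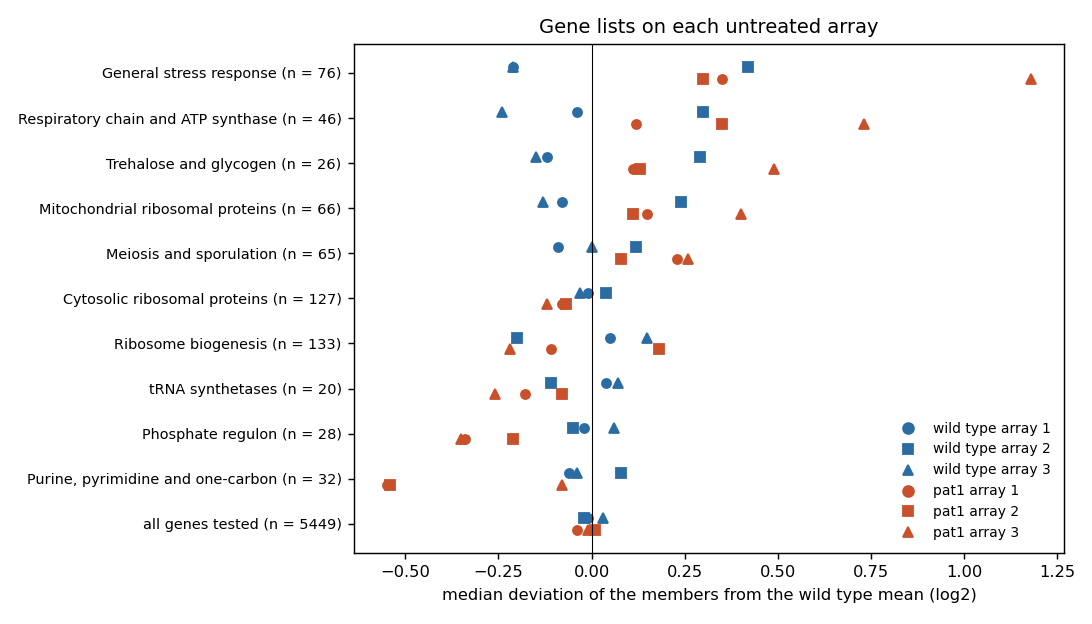
Median deviation from the wild type mean (log2, horizontal axis) of the members of 10 gene lists and of all genes tested, on each untreated wild type array (blue) and pat1 array (red). For general stress and respiratory genes wild type array 2 lies among the pat1 arrays and pat1 array 3 is highest, whereas for the phosphate regulon the 3 pat1 arrays, at -0.34, -0.21 and -0.35, lie below all wild type arrays.

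Genes of meiosis and sporulation are kept at low levels by haploid cells in rich conditions. Of 65 members, 6 were higher (9.23%) and 1 lower (1.54%), beside 3.51% and 2.94% of all genes. The median of the members was 0.19. In each reduced set 3 were higher and 0 lower. SPO22, needed for chromosome synapsis, read 4.32, 4.39 and 4.68 in wild type and 5.92, 5.89 and 6.64 in pat1. The groups were more than 1 apart, and it rose by 1.68 ± 0.26 (limma, adjusted p = 0.00681). IME2, the kinase gene that drives entry into meiosis, read 6.44, 6.40 and 6.37 against 7.25, 7.22 and 7.13. Both groups were tight, and the rise was 0.80 ± 0.09 (limma, adjusted p = 0.0018). AMA1, the meiotic activator of the anaphase-promoting complex, rose by 1.06 ± 0.14 (adjusted p = 0.00228). These 3 were stable genes. CDA1, a chitin deacetylase gene of the spore wall, NDT80, the factor of middle meiosis, and SPO12 rose by 1.58, 1.10 and 0.71 (adjusted p = 0.0189, 0.0497 and 0.0497). ZIP1, of the synaptonemal complex, fell by 0.91 ± 0.20 (limma, adjusted p = 0.026). The inducer gene IME1 differed by 0.25 (adjusted p = 0.386). Of 48 genes of mating type and pheromone response, 1 rose (2.08%, beside 3.51% of all genes) and 0 fell, with a median of 0.00. This was STE3, the receptor gene for a-factor that belongs to alpha cells. STE3 read 5.20, 6.21 and 5.47 in wild type and 7.01, 6.32 and 7.33 in pat1, and rose by 1.26 ± 0.31 (limma, adjusted p = 0.038). It did not pass in the fit to 6 arrays or with the trend on length taken off (limma, adjusted p = 0.117 and 0.0574). The alpha genes MF(ALPHA)1, MF(ALPHA)2 and SAG1 differed by 0.36, 0.14 and 0.31 without passing.

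Of 32 targets of the cell wall integrity pathway, 1 rose (3.12%, beside 3.51% of all genes) and 0 fell. The target that rose was GSC2, the gene of the stress-induced catalytic subunit of 1,3-beta-glucan synthase. It read 9.57, 9.62 and 9.30 in wild type and 10.73, 10.85 and 11.54 in pat1. All pat1 arrays were more than 1 above all wild type arrays, and the rise was 1.54 ± 0.20 or 2.91-fold (limma, adjusted p = 0.0027, and 0.0426 in the fit to 6 arrays). FKS1, the gene of the constitutive subunit, read 12.87, 12.87 and 12.88 against 12.43, 12.71 and 12.68, and the difference of -0.26 ± 0.10 did not pass (adjusted p = 0.132). With Congo Red, GSC2 differed by 0.22 between the strains (adjusted p = 0.546). The difference of the effects, -1.32, did not pass in the 12-array fit (adjusted p = 0.752) or with a fixed sample block (adjusted p = 0.13) and passed with a random sample block (adjusted p = 0.0364). Among 37 genes of glucan and chitin synthesis 2 fell (5.41%, beside 2.94% of all genes). These were KRE5 and GAS3, by 0.69 and 0.41 (limma, adjusted p = 0.0161 and 0.0497). With the trend on length taken off both differed by -0.38 (adjusted p = 0.0773 and 0.0823).

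Other genes with large rises came from separate functions. CLD1, a mitochondrial phospholipase gene that remodels cardiolipin, read 6.19, 6.24 and 6.14 in wild type and 7.79, 8.03 and 8.10 in pat1. Both groups were tight and 1.5 apart or more, and the rise was 1.78 ± 0.14 or 3.44-fold (limma, adjusted p = 6.32e-05). QDR2, a multidrug transporter gene, read 9.78, 9.90 and 9.14 against 11.20, 11.19 and 11.28, a rise of 1.61 ± 0.20 (limma, adjusted p = 0.0018). YEL073C, a frame without a gene name, rose by 1.44 ± 0.17 (adjusted p = 0.0018), and GEX1, a glutathione exchanger gene whose probe set may bind related transcripts, by 1.24 ± 0.12 (adjusted p = 0.000558). MRK1, a kinase gene of the glycogen synthase kinase 3 family, rose by 1.07 ± 0.13 (adjusted p = 0.0018), and CPD1, a cyclic phosphodiesterase gene, by 0.96 ± 0.14 (adjusted p = 0.00498). OYE3, an NADPH oxidoreductase gene, rose by 1.06 ± 0.15 (adjusted p = 0.00363). All 7 were stable genes, and of the 7 OYE3 alone did not pass in the fit to 6 arrays (adjusted p = 0.0597).

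Between strains with Congo Red the same fit called 351 genes (6.44%), 232 higher (4.26%) and 119 lower (2.18%). The 2 comparisons share biological samples, so their calls are not independent. Tested directly, the difference of the pat1 effect with and without drug was called for 0 genes (0.0%; limma, with 130 genes at an unadjusted p under 0.05). With the biological sample as a fixed replicate block it was called for 3 genes (0.0551%), YNR065C, YJL107C and PRM10, with 659 genes at an unadjusted p under 0.05, and with a random block for 11 (0.202%). Of the 3 genes named here, YNR065C alone was among those 11.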

How the data were processed

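The deposited table holds log2 values that the authors made with RMA, per the submitters' processing notes, which name no version; they were used as deposited. Of 5739 probe sets, 23 array controls and 218 without a listed gene were left out. The other 5498 had 1 symbol each from the platform annotation, with 12 brought up to date through the RefSeq gene table of assembly R64. For 47 genes with several probe sets the brightest was taken, which left 5449 genes, 114 of them with a probe set that can cross-hybridize by its name. Arrays have no read depth, and their number limits the precision.

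Group means were fitted with limma 3.58.1 in R 4.3.3 to all 12 arrays (8 residual degrees of freedom, with 4 in the fit to 6 arrays), and genes were called at a Benjamini-Hochberg adjusted p under 0.05. Summaries used pandas 2.3.3 and figures matplotlib 3.10.9, in Python 3.11.15. An exact permutation test of 3 against 3 arrays cannot go below p = 0.1 and was not used. Per the design text, every biological sample was split over an untreated and a treated array. The block for the difference of effects rests on that text. Arrays of 1 sample deviated together, with correlations of 0.65, 0.80 and 0.78 in wild type and 0.62, 0.73 and 0.67 in pat1. Untreated wild type array 2 and pat1 array 3, which are different samples, correlated at 0.69. Such values therefore do not show a shared sample, and URA3, as given above, differed between arrays given to 1 sample. In simulated data with 200 of 5449 genes changed, the fit to 12 arrays recovered 86.0% of differences of 1 and 97.8% of differences of 2 (log2), and 5.06% of its calls were false; the fit to 6 arrays recovered 82.6% and 97.4%, with 4.05% false. The simulation had no correlation between arrays of 1 sample and no deviations shared by many genes of an array. It changed genes by 1 or 2 only, whereas the median called change here was 0.62. Its rates therefore cannot be carried over to these data, in which the fits to 12 and 6 arrays called 351 and 24 genes.

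The comparison and the 56 gene lists were chosen with earlier results of these data known. Named were PAT1, its neighbours, the 15 largest called changes in each direction, all genes of the mRNA decay lists, up to 4 called members of every other list (or the 2 with the largest change) and strain markers. Genes named outside this rule, among them SPL2, VTC2, PHO81, PHO84, GDE1, MOT1, GEX1, MRK1, HSP12, ADE17 and FKS1, were chosen after their values were seen. Alternatives were other normalizations, filters, probe set rules, thresholds, array weights, blocks and arrays left out. The removal of the length trend (lowess, span 0.5), the leaving out of wild type array 2 with pat1 array 3 and the random block for the difference of effects were chosen after seeing the data. Single-probe signal files were not analysed here, and no sequences are printed. A result on a withheld item is not reported here.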

Additional observations from a re-analysis of the deposited data

Results flagged for a closer look

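The effect of pat1 differed with and without drug in 3 genes, in the limma fit with the biological sample as a fixed replicate block. YNR065C had an adjusted p of 0.043 for a difference of -1.45 ± 0.18: pat1 minus wild type was 0.07 without drug and -1.38 with Congo Red. YJL107C had an adjusted p of 0.0199 for -1.26 ± 0.12, with 0.15 without drug and -1.11 with it. PRM10 had an adjusted p of 0.0353 for -1 ± 0.12, with 0.00 without drug and -1 with it. YJL107C and PRM10 are neighbours on the chromosome. With the sample as a random block YNR065C kept its call (adjusted p = 0.0364), while YJL107C and PRM10 did not pass (0.106 and 0.124), and without a block all 3 had an adjusted p of 1.0. Without drug the groups overlapped in all 3, and YNR065C, for example, read 8.82, 8.74 and 8.66 in wild type and 9.38, 8.54 and 8.52 in pat1.

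Probe sets outside the gene tests were called about as often as genes. Of 218 probe sets without a listed gene, 12 (5.5%) were called between untreated pat1 and wild type when every probe set that is no control was fitted together with limma, 7 higher and 5 lower, with differences from -0.76 to 2.20, beside 6.44% of genes.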

How the results depend on the processing

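The fall of PAT1 passed in each alternative run on it, at -7.63 to -7.06 on the log2 scale, and no named gene changed sign past the threshold. Counts of calls moved with many choices. Leaving out 1 array in turn gave 58 to 363 genes called, 29 to 200 higher and 29 to 163 lower. Only the 6 untreated arrays gave 24 (12 higher, 12 lower). Array weights gave 889 (487 higher, 402 lower), and the fit without moderation 284 (119 higher, 165 lower). An adjusted p under 0.01 left 46 (24 higher, 22 lower), and the 2-fold limit 58 (39 higher, 19 lower). Without wild type array 2 and pat1 array 3 there were 63 (41 higher, 22 lower), and with the length trend taken off 217 (144 higher, 73 lower). The number in the titles as a replicate block across strains gave 349 calls (185 higher, 164 lower); arrays of the same number deviated at correlations of 0.26, -0.55 and -0.44, so the numbers do not pair the strains. The cause of these moves was not tested, other than the stricter limits, which lower a count by construction. For the difference of effects, the 0 calls became 3 with a fixed replicate block and 11 with a random block, and 0 to 3 on leaving out 1 array. The biological sample as a random block gave 287 calls. Other normalizations, the filter on dim genes, trend and robust settings and other probe set rules kept the number of calls between 309 and 403.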

Other observations

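Genes of iron uptake and use had 4 of 36 members higher (11.1%, beside 3.51% of all genes) and 0 lower, with a median difference of 0.14. With the length trend taken off there was 1 higher, FRE5, without pat1 array 1 there were 0, and without wild type array 2 and pat1 array 3 there were 4. FRE5, of the ferric reductase family, read 4.71, 4.48 and 5.03 in wild type and 6.36, 6.57 and 5.63 in pat1, a rise of 1.45 ± 0.28 (limma, adjusted p = 0.0178). FIT2, a wall mannoprotein gene that retains siderophores, read 10.19, 10.55 and 10.67 against 11.97, 11.65 and 10.97, a rise of 1.06 ± 0.22 (limma, adjusted p = 0.0232). ISU2, an iron-sulfur scaffold gene, and the heme oxygenase gene HMX1 both rose by 0.59 (adjusted p = 0.0473 and 0.0282). Without wild type array 2 and pat1 array 3, FRE5, FIT2 and HMX1 kept their calls. ISU2 did not (limma, adjusted p = 0.166), and another member was called there. The high-affinity uptake genes FET3 and FTR1 differed by 0.35 and 0.36 without passing. None of FRE5, FIT2, ISU2 and HMX1 was called in every one of the fits that left out 1 untreated array.

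Other lists held few calls, beside 3.51% higher and 2.94% lower over all genes. Of 40 genes of amino acid permeases and nitrogen catabolite repression, 3 rose and 0 fell, among them DAL82, an activator gene of allantoin use, by 0.72 (limma, adjusted p = 0.00781). Of 32 genes of thiamine, biotin, NAD and pyridoxine metabolism, 3 rose and 0 fell, namely THI73, PET18 and BIO3, by 0.94, 0.81 and 0.64 (limma, adjusted p = 0.00782, 0.0238 and 0.0136). Of 44 genes of G2, M phase and cytokinesis, 1 rose and 3 fell, with a median of -0.22. BUD3, PRY3 and MYO1 fell by 0.77, 0.72 and 0.68 (adjusted p = 0.0238, 0.0444 and 0.0217); with the length trend taken off their adjusted p-values were 0.138, 0.0903 and 0.288. Of 41 proteasome genes, 0 rose and 2 fell, ECM29 and BLM10, by 0.92 and 0.56 (adjusted p = 0.00668 and 0.0238), both of them long genes.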
